A study of Mus musculus with 12 samples.

Results

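The Reg family of secreted C-type lectins was followed across mouse colorectal tissue by taking the rows of the deposited count table that carry the symbols Reg1, Reg2, Reg3a, Reg3b, Reg3d, Reg3g and Reg4. All 7 genes were present among the 18514 genes listed, and 5 of them (Reg1, Reg3a, Reg3b, Reg3g and Reg4) were among the 15484 genes kept by the filter on low counts. Reg2 and Reg3d were not kept. Because the pancreas also makes Reg proteins, the libraries rich in Pnlip, the pancreatic lipase made by acinar cells, were set beside the others.

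RNA was sequenced from 12 male C57BL/6 mice bought at an age of 4 weeks, with 3 mice in each of 4 groups and 1 library per mouse. Ctrl mice (mice 1, 2 and 3) received no drug and were placed in shallow water. Ctrl_Swim mice (mice 2, 3 and 4) received no drug and swam for up to 90 min per day. Model mice (1, 2 and 3) received the carcinogen azoxymethane (AOM) once at 10 mg/kg, followed by 3 cycles of 7 days of 2% dextran sulfate sodium (DSS), a detergent-like polymer that injures the colon epithelium, and were placed in shallow water. Model_Swim mice (1, 2 and 3) received the same AOM and DSS and swam as the Ctrl_Swim mice did, from before the AOM on. The age at tissue collection is not given in the sources used here, and the labels do not say whether a piece of AOM/DSS colon held tumor. In bulk tissue, fewer cells of a type and less RNA per cell cannot be told apart, and the p-values below measure the spread between these mice.

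Reg proteins carry a single lectin domain behind a signal peptide and are released into the lumen of the gut or the ducts of the pancreas. Reg3b and Reg3g bind and kill bacteria, are made by intestinal epithelial cells, and are known to be induced by microbes through IL-22 and STAT3. Reg1 and Reg2 are abundant products of pancreatic acinar cells, Reg3d is expressed mainly in the pancreas and stomach, Reg3a occurs in both intestine and pancreas, and Reg4 marks the deep crypt secretory cells of the mouse colon, which resemble goblet cells and sit beside the stem cells.

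In GRCm38.p6 (RefSeq annotation), Reg1, Reg2, Reg3a, Reg3b, Reg3d and Reg3g lay together on chr6:78370885-78468874, a span of 98.0 kb with 7 annotated genes of which 6 were Reg genes. Reg4 lay apart on chr3:98222138-98236748 on the plus strand. No other annotated gene overlapped any of the 7. The most similar transcripts were those of Reg3b and Reg3g, with 67.7% identity in a global alignment and a longest identical run of 35 bases, while Reg1 and Reg2 shared 58.4% identity and at most 19 bases in a row. A read inside such a run cannot be placed on one gene alone, and how such reads were counted is not given in the sources used here.

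The promoters below, each the 250 bases before the annotated start from RefSeq (GRCm38.p6), are shown for the genes that moved together, namely Reg1, Reg2 and Reg3d in the Pnlip-rich libraries and Reg3b and Reg3g across all mice. Each is written 5′ to 3′ on the strand of its gene. Capitals mark matches on either strand to 4 motifs. The first is CACCTG, one of the boxes bound by the acinar factor PTF1, and the second is TTTCCC, the partner box of that factor. The third is TTCNNNGAA, which STAT factors bind. The last, TATAAA, holds the core letters of the box near which transcription starts. In Reg3d a TTTCCC and a TTCNNNGAA match overlap and are written as one run of capitals.
Reg1, chr6:78425733-78425982, plus strand: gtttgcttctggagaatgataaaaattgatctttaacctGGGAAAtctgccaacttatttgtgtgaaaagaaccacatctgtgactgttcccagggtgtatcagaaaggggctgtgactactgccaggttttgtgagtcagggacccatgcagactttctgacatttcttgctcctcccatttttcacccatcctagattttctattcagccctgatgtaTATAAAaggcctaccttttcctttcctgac
Reg2, chr6:78404905-78405154, plus strand: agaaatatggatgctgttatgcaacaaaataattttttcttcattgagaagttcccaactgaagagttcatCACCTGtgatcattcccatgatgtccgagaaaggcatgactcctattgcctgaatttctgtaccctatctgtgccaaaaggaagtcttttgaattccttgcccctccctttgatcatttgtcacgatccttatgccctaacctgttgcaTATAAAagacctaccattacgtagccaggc
Reg3d, chr6:78378866-78379115, minus strand: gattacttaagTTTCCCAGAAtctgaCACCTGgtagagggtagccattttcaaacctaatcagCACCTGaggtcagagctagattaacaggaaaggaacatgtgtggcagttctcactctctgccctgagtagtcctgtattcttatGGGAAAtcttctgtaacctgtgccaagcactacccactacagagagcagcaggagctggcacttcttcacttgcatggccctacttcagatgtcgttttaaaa
Reg3b, chr6:78370635-78370884, plus strand: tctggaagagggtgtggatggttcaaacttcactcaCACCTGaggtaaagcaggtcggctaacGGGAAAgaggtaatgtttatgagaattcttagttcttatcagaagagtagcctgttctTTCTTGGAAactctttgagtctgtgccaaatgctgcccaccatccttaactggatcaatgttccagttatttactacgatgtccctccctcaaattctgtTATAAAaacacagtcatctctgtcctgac
Reg3g, chr6:78468875-78469124, minus strand: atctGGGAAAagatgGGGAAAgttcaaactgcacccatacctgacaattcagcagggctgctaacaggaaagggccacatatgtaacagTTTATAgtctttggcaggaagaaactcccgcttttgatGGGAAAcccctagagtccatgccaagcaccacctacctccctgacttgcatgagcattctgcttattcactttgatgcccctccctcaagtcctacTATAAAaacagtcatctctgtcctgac
Promoter identity was 68.4% between Reg3b and Reg3g and 55.6% between Reg1 and Reg2, and it lay between 43.8% and 52.7% for the other pairs of Reg genes. CACCTG occurred in 5 of the 7 Reg promoters (Reg2, Reg3a, Reg3b, Reg3d and Reg4) and in 17.2% of 32851 promoters of the same length. TTTCCC occurred in 4 (Reg1, Reg3b, Reg3d and Reg3g) and in 21.9% of all, TTCNNNGAA in 2 (Reg3b and Reg3d) and in 7.02%, and TATAAA in 4 (Reg1, Reg2, Reg3b and Reg3g) and in 12.4%. In these 4 promoters a TATAAA match on the gene's own strand began between 27 and 30 bases before the start. The acinar letters were thus found in promoters of the intestinal as well as the pancreatic members, and a match is only a description of the letters.

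The libraries held between 17256953 and 19451055 counted reads. The highest level that a count of 0 allows, taken as 3 counts, was between 0.153 and 0.172 CPM (counts scaled by TMM to a common library size). All 20 genes of a colon epithelium list were kept by the filter, and their summed level was 19340 to 40845 CPM over the 12 libraries. Single genes of the list were low in some libraries. Scnn1g was at 0.0574 CPM in Model 3, and Car1 at 277 CPM in Model 2 against 6385 to 6821 in Ctrl mice. The libraries Model 1 and Model 3 stood apart from the others by pancreatic RNA. Pnlip was at 7142 and 3092 CPM in them, at 8.61 in Model 2, and between 0.153 and 5.17 in the mice of the other groups. The 3 most abundant acinar genes of these libraries were Pnlip, the chymotrypsinogen gene Ctrb1 (7837 and 3316 CPM) and the elastase gene Cela2a (7022 and 3751 CPM). Of 19 acinar genes kept by the filter, 18 were higher in both libraries than in every other library. Pnlip, by which these libraries were named, is among the 18. The filter can also keep a gene through the Model mice alone. The count is thus a description, and the share of all genes with this pattern was not counted. The islet hormone gene Ins2 was at 7.40 and 3.39 CPM in Model 1 and Model 3, at 0.0545 CPM in Model 2 and at 0 in all others. The islet list as a whole did not follow Ins2. Its summed level was 61.3 CPM in Model 1, 82.9 in Model 3, 82.9 in Model 2 and 91.5 to 129 in Ctrl mice. The differences in Reg genes that rest on Model 1 and Model 3 are given below with and without them.

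**Figure D1:**
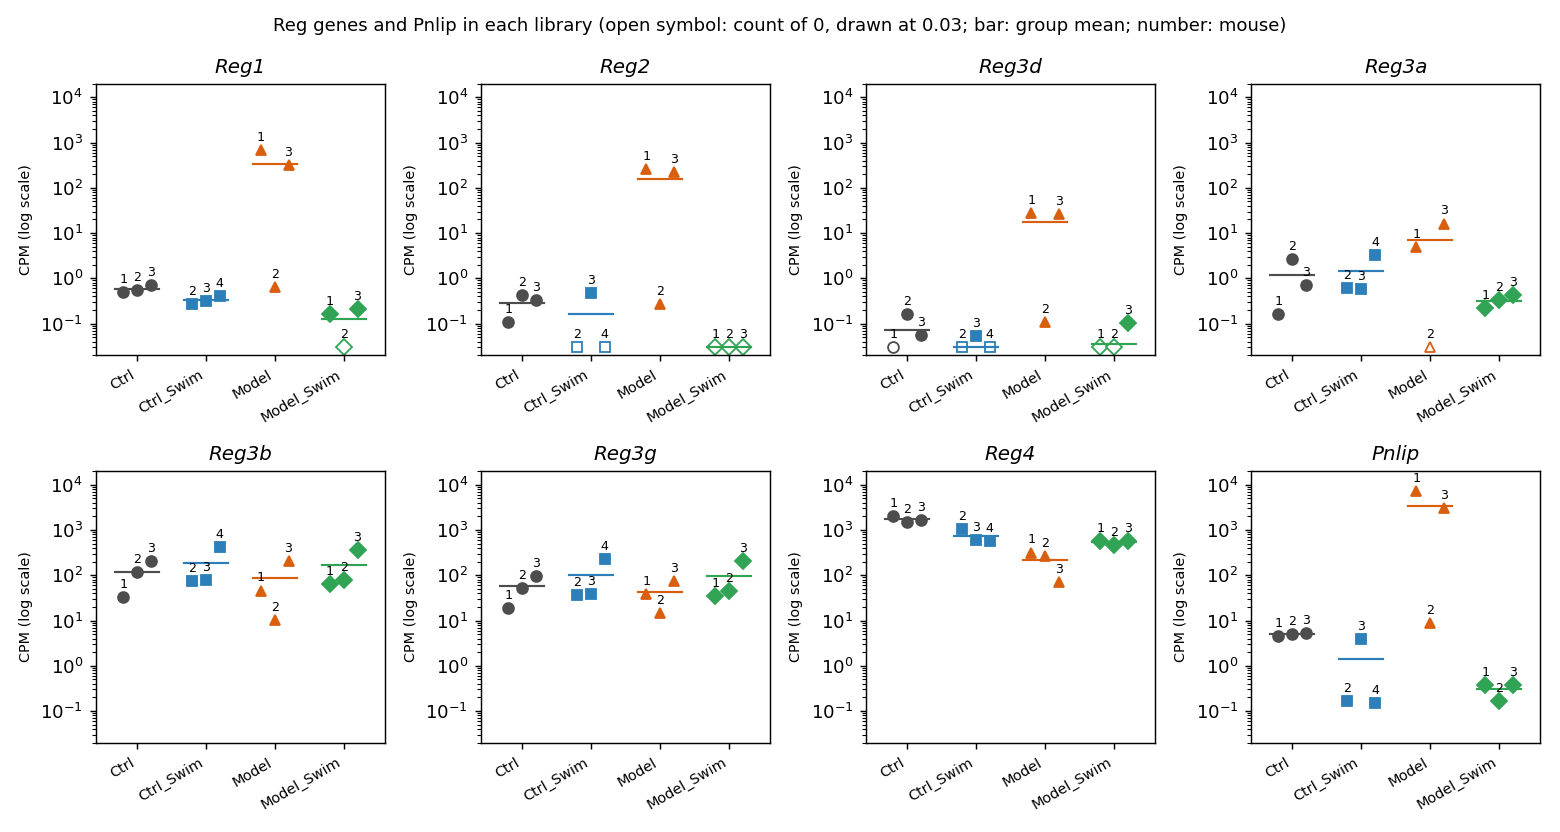
Levels of the 7 Reg genes and Pnlip in CPM (log axis) in each of the 12 libraries, by group. Points are mice, numbered as in the text, bars are group means, and open symbols at 0.03 stand for a count of 0 (a mean below 0.03 is drawn there too). Reg1, Reg2 and Reg3d were high in Model 1 and Model 3 together with Pnlip, while Reg4 was lowest in the Model group (72.5 to 317 CPM).

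Per length, Reg4 was the most abundant member in Ctrl tissue, with a mean level of 1569 FPKM (rank 17 of all genes), and Reg3b followed with 147 FPKM and Reg3g with 68.7 FPKM. Reg3a was at 1.32, Reg1 at 0.717, Reg2 at 0.399 and Reg3d at 0.0885 FPKM. The healthy colorectum of these mice thus expressed 3 Reg genes at substantial levels. Levels in Ctrl_Swim mice had the same order, from Reg4 at 727 FPKM to Reg3d at 0.0235 FPKM, and in Model_Swim mice Reg4 (518 FPKM), Reg3b (223 FPKM) and Reg3g (124 FPKM) again led. In Model tissue the order of the mean levels was another, with Reg1 at 431, Reg2 at 233, Reg4 at 215 and Reg3b at 117 FPKM, but the means of Reg1 and Reg2 came from Model 1 and Model 3 alone. In Model 2, Reg4 was at 266 FPKM, Reg3g at 19.4, Reg3b at 13.8, Reg1 at 0.880 and Reg2 at 0.408 FPKM. Among neighbours in the order, Reg3b and Reg3g overlapped in every group, whereas Reg4 lay above every Reg3b value in Ctrl and Ctrl_Swim mice but overlapped Reg3b in Model_Swim mice (463 to 551 against 84.4 to 482 FPKM). Of all Reg reads, Reg4 made up 84.4% to 97.5% in Ctrl mice, 47.1% to 90.5% in Ctrl_Swim mice and 49.99% to 85.0% in Model_Swim mice. In Model mice the share was 23.3% (mouse 1), 91.3% (mouse 2) and 7.77% (mouse 3).

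Reg1, which encodes the pancreatic stone protein lithostathine, was at 669 CPM in Model 1, 0.654 in Model 2 and 313 in Model 3. It was at 0.497, 0.545 and 0.715 CPM in Ctrl mice, at 0.274, 0.319 and 0.409 in Ctrl_Swim mice, and at 0.165, 0 and 0.212 in Model_Swim mice. Model 2 thus lay inside the range of the Ctrl mice, and the other Model mice lay far above it. These low levels are 5 to 13 reads a library in the untreated mice and 0 to 4 in the Model_Swim mice, where counting error alone is large (9 reads have an exact Poisson 95% interval of 4.12 to 17.1, which covers counting error only). Between Model and Ctrl, Reg1 was called higher (log2 fold change 9.11, SE 1.72, edgeR adjusted p = 0.00347). Without Model 1 and Model 3, which leaves 1 Model mouse assumed to vary like the others, the difference was 0.14 (log2, adjusted p = 0.918), and with the mean log2 level of the acinar list as a covariate it was 0.21 (adjusted p = 0.852). The mean level of Reg1 in the Pnlip-rich libraries was 1296 times that of the other 10 libraries.

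Reg2, the close paralog of Reg1, was at 255 CPM in Model 1, 0.272 in Model 2 and 221 in Model 3. It was at 0.110, 0.436 and 0.330 CPM in Ctrl mice, at 0, 0.479 and 0 in Ctrl_Swim mice, and at 0 in all 3 Model_Swim mice. Reg3d, a pancreatic member of the Reg3 group, was at 28.0, 0.109 and 25.9 CPM in Model mice, between 0 and 0.163 in Ctrl mice, between 0 and 0.0532 in Ctrl_Swim mice and between 0 and 0.106 in Model_Swim mice. Both genes were therefore at or near the limit of detection outside Model 1 and Model 3. Against the limit that 3 counts set in the Model_Swim libraries, the Model mean of Reg2 was at least 979-fold higher, a value that also rests on Model 1 and Model 3. When the filter on low counts was left out, both genes were called higher in Model than in Ctrl, Reg2 by 9.06 (log2, edgeR adjusted p = 0.00759) and Reg3d by 7.82 (adjusted p = 0.00446). The same differences without Model 1 and Model 3 were -0.10 (adjusted p = 0.994) and 0.53 (adjusted p = 0.869).

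Within the Pnlip-rich libraries the pancreatic members did not all scale alike. The acinar genes were higher in Model 1 than in Model 3 by a median of 2.10 times (range 1.67 to 2.65 over 19 genes), and the ratio for Reg1 was 2.14. The ratio was 1.15 for Reg2 and 1.08 for Reg3d, both below every one of the 19 acinar genes kept by the filter. Among listed acinar genes that were not kept, Ptf1a was lower still (0.839, from 2.36 and 2.81 CPM). The others of these with a ratio were at 1.87 to 2.86. Per 1000 Pnlip reads there were 93.7 Reg1 reads in Model 1 and 101 in Model 3, against 35.8 and 71.6 Reg2 reads and 3.93 and 8.37 Reg3d reads. Reg1 thus kept its ratio to Pnlip between these mice, and Reg2 and Reg3d were about as high in both. With 1 library from each mouse these ratios have no replicate check.

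Traces of the pancreatic members in the other libraries can be read on the same scale, as a percentage of the mean of Model 1 and Model 3. The median acinar gene was at 0.0999% to 0.135% in Ctrl mice, at 0.0890% in Ctrl_Swim 3 and at 0.151% in Model 2. That median was taken over all 26 listed genes, kept by the filter or not. In the other 5 libraries (Ctrl_Swim 2 and 4 and the Model_Swim mice) it was at 0.00326% to 0.00789%. Reg1 was at 0.101% to 0.146% in Ctrl mice, at 0.0650% in Ctrl_Swim 3 and at 0.133% in Model 2, close to the acinar median there. In Ctrl_Swim 2 and 4 it was at 0.0558% and 0.0833%, above the acinar median of those libraries, from 5 and 8 reads. Reg2 had no read in any of the 5 libraries with the lowest acinar levels and had 2 to 9 reads in each of the other 5.

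**Figure D2:**
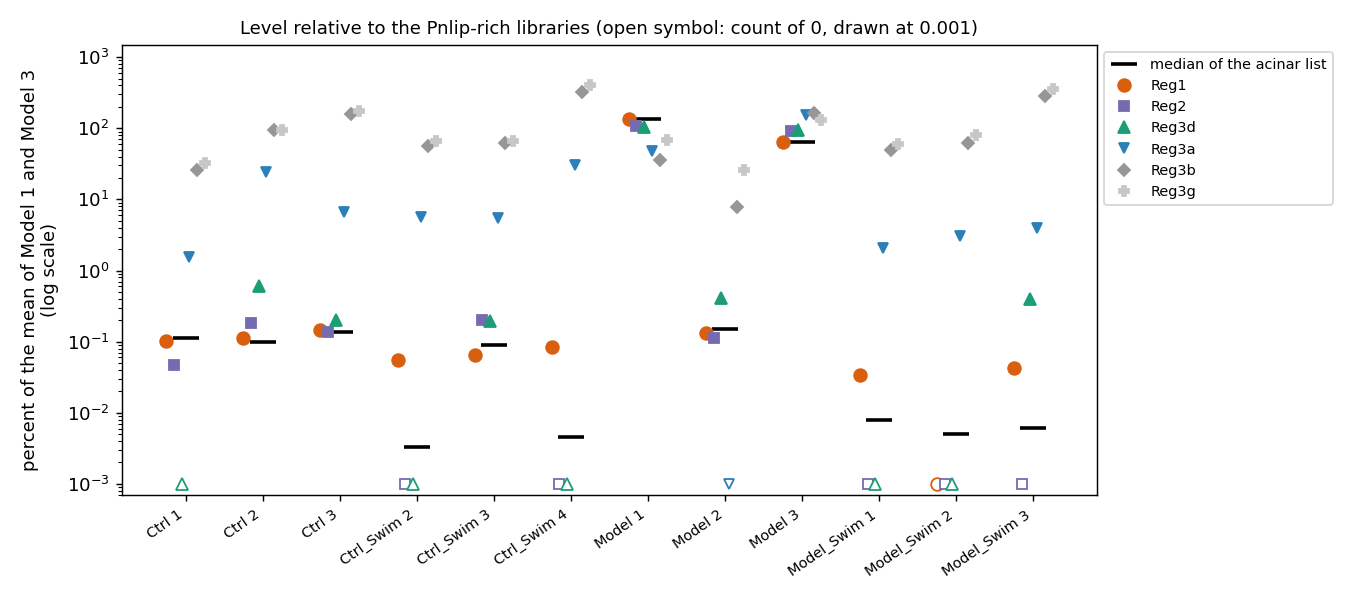
Level of each gene as a percentage of its mean in Model 1 and Model 3 (log axis) for the 12 libraries. The black bar is the median of all 26 listed acinar genes, kept by the filter or not, and open symbols at 0.001 stand for a count of 0. Reg1 lay near the acinar median in Ctrl mice (0.101% to 0.146%), while Reg3b and Reg3g lay far above it in every library outside Model 1 and Model 3.

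Reg3a, a member with expression in gut and pancreas, was at 5.04 CPM in Model 1, 0 in Model 2 and 16.3 in Model 3. It was at 0.166, 2.62 and 0.715 CPM in Ctrl mice, at 0.603, 0.585 and 3.22 in Ctrl_Swim mice, and at 0.220, 0.326 and 0.424 in Model_Swim mice. The Model group held both the highest values and the lowest value of all 12 libraries. Model and Ctrl differed by 2.60 (log2, SE 1.33, adjusted p = 0.150), Model_Swim and Model by -4.43 (SE 1.51, adjusted p = 0.263), and neither passed the cutoffs. Without Model 1 and Model 3 the first difference turned to -7.44 (adjusted p = 0.0766), a value set by the count of 0 in Model 2. Without Model 2 it was 3.20 and passed the cutoffs (adjusted p = 0.0372). In size Reg3a lay far below the median acinar gene. Its mean in Model 1 and Model 3 was 12.02 times that of the other libraries. The acinar genes kept by the filter had a median of 1491 times, with a range of 3.07 to 1969 times that includes the Reg3a value. Unlike these acinar genes, Reg3a was lower in Model 1 than in Model 3 (ratio 0.309). Relative to Reg3b reads, Reg3a reads were 10.96% in Model 1 and 7.82% in Model 3, and between 0.118% and 2.18% in the 9 mice of the other groups.

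Reg3b, a bactericidal lectin of the gut lining, was at 33.1, 120 and 202 CPM in Ctrl mice and at 72.7, 78.7 and 411 in Ctrl_Swim mice. It was at 46.0, 10.1 and 208 CPM in Model mice and at 63.9, 77.8 and 360 in Model_Swim mice. Every group thus spanned a range of at least 5 times, and all groups overlapped. Reg3g, the paralog that acts on Gram-positive bacteria, was at 18.4, 52.9 and 97.9 CPM in Ctrl mice and at 37.0, 38.1 and 232 in Ctrl_Swim mice. It was at 38.5, 14.5 and 74.9 CPM in Model mice and at 34.5, 45.4 and 203 in Model_Swim mice. The mice that were high for Reg3b were the ones high for Reg3g, and 1 mouse in each swimming group (Ctrl_Swim 4 and Model_Swim 3) stood above the rest of its group for both.

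Neither gene passed the cutoffs in any comparison. Model and Ctrl differed by -0.43 (log2, SE 1.08, adjusted p = 0.783) for Reg3b and by -0.40 (SE 0.93, adjusted p = 0.762) for Reg3g. Model_Swim and Model differed by 0.93 (SE 1.08) and 1.15 (SE 0.93), and Ctrl_Swim and Ctrl by 0.66 (SE 1.07) and 0.86 (SE 0.92), with adjusted p between 0.632 and 0.785. With standard errors near 1 on the log2 scale, differences of a few-fold in these genes were not detectable with 3 mice a group. The directions also turned when single mice were left out. Without Ctrl_Swim 4, Ctrl_Swim and Ctrl differed by -0.64 (Reg3b) and -0.58 (Reg3g), and without Model 2, Model and Ctrl differed by 0.11 and 0.02.

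Across the 12 mice, the log2 levels of Reg3b and Reg3g were correlated (Pearson r = 0.955, permutation p = 1e-05, the smallest the 100000 resamples can give, Spearman rho = 0.937, permutation p = 6e-05). After Benjamini-Hochberg adjustment over the 3 relations examined among Reg genes, these were 3e-05 and 0.00018. Leaving out Ctrl_Swim 4 and Model 2, the mice farthest from the median of Reg3b, gave r = 0.958. Within the 6 untreated mice r was 0.994 and within the 6 AOM/DSS mice it was 0.961. Reg3b and Reg3a had r = 0.556 (permutation p = 0.0603, rho = 0.580, permutation p = 0.0515, adjusted 0.0905 and 0.0772), which fell to 0.268 without the same mice. Reg4 and Reg3b had r = 0.00585 (permutation p = 0.986, rho = 0.0839, permutation p = 0.800, adjusted 0.986 and 0.800), and r = 0.522 without Model 3 and Ctrl 1.

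The 9 mice outside the Model group had between 1.71 and 2.27 Reg3b reads per Reg3g read. The Model mice had 1.19, 0.696 and 2.78, below, below and above that range. Model 2, with the lowest levels of both genes, was the library in which Reg3g exceeded Reg3b.

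**Figure D3:**
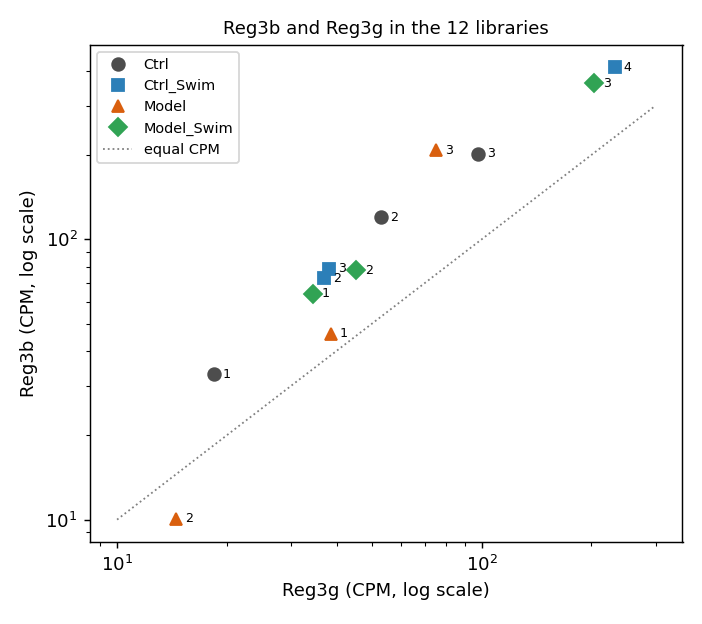
Reg3b against Reg3g level (CPM, both axes log) in the 12 libraries, with mouse numbers. The dotted line marks equal levels. The points rise together from Model 2 (14.5 CPM of Reg3g, 10.1 of Reg3b) to Ctrl_Swim 4 (232 and 411), and only Model 2 lies below the line.

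Reg4, the crypt member of the family, was the 1 member whose 4 groups did not overlap at all. The share of all genes with 4 such groups was not counted. Between Model and Ctrl alone, 44.2% of all genes were without overlap. The Reg4 level was 2051, 1513 and 1634 CPM in Ctrl mice and 1057, 593 and 575 CPM in Ctrl_Swim mice. In Model mice it was 317, 267 and 72.5 CPM, and in Model_Swim mice 558, 476 and 564 CPM. Ctrl_Swim and Model_Swim mice lay close, with 575 CPM as the lowest value of the former and 564 CPM as the highest of the latter. The order was Ctrl, Ctrl_Swim, Model_Swim and Model, with means of 1733 ± 282, 742 ± 273, 533 ± 49.4 and 219 ± 129 CPM (SD, n = 3 each). Of the 4 comparisons between groups, the one between Model and Ctrl passed the cutoffs. It was a 7.91-fold decrease (log2 fold change -2.98, SE 0.45, edgeR adjusted p = 0.00126). Averaged over swimming, Reg4 was 3.32-fold lower in the 6 AOM/DSS mice than in the 6 untreated mice (log2 fold change -1.73, SE 0.30, adjusted p = 0.00196). These mice were again without overlap, as for 12.4% of all genes. Without the Pnlip-rich libraries the difference between Model and Ctrl was -2.72 on the log2 scale (adjusted p = 8.3e-04), and with the acinar covariate -2.76 (adjusted p = 0.0246).

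The neighbours in the order of Reg4 levels did not pass the cutoffs after adjustment over all genes. Ctrl_Swim mice were 2.34-fold below Ctrl mice (log2 fold change -1.22, SE 0.42, adjusted p = 0.191), Model_Swim mice were 2.43-fold above Model mice (1.28, SE 0.43, adjusted p = 0.257), and Model_Swim mice were 1.39-fold below Ctrl_Swim mice (-0.48, SE 0.42, adjusted p = 0.548). The first and the second had an unadjusted p under 0.05 in edgeR. None of the 3 pairs of groups overlapped, as for 27.4%, 16.9% and 32.4% of all genes in the same order. The comparison of Ctrl_Swim and Ctrl passed the cutoffs without Model 3 (adjusted p = 0.0293) and in a fit of these groups alone (adjusted p = 0.0332). The mean was thus lower with swimming in untreated mice and higher with swimming in AOM/DSS mice. The difference between these effects was 2.51 on the log2 scale (SE 0.60, unadjusted p = 0.00151, edgeR adjusted p = 0.115) and did not pass the cutoffs. It did without Model 3, the mouse with the lowest Reg4 level (2.08, adjusted p = 0.00874), and by DESeq2 (2.50, adjusted p = 0.00348).

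The level of Reg4 can be set beside those of genes of goblet and deep crypt secretory cells. In a list of 20 such genes without Reg4, 3 fell in Model mice relative to Ctrl (Spink4 -1.62, Clca1 -1.38 and Spdef -1.23 on the log2 scale, a secreted goblet cell protein, a mucus protein and a transcription factor of goblet cells), none rose, and the median was -0.56 against 0.01 over all genes tested. Of all genes, 1.22% fell and 6.21% rose in that comparison. In Ctrl_Swim relative to Ctrl, where 0.142% of all genes fell, 3 fell (Clca1 -2.51, Capn9 -1.45 and Spink4 -1.21) and the median was -0.71. The summed level of the list was 40422 to 51261 CPM in Ctrl mice, 15215 to 19654 in Ctrl_Swim mice, 15608 to 36084 in Model mice and 18533 to 32772 in Model_Swim mice. As a percentage of that sum, a measure chosen after the data were seen, Reg4 was 4.001%, 3.74% and 3.94% in Ctrl mice, 5.38%, 3.03% and 3.78% in Ctrl_Swim mice, 2.03%, 0.740% and 0.258% in Model mice, and 1.70%, 1.85% and 3.05% in Model_Swim mice. The share was lower in AOM/DSS mice by 1.66 on the log2 scale (6 against 6 mice, exact two-sided permutation p = 0.00433, the smallest possible being 0.00216), with 1 AOM/DSS mouse (Model_Swim 3) inside the untreated range. It was lower by 1.27 without Model 1 and Model 3 (4 against 6 mice, exact permutation p = 0.00952, the smallest possible being 0.00476). Between Ctrl_Swim and Ctrl mice the share differed by 0.02 (log2, exact permutation p = 0.9) and between Model_Swim and Model mice by 1.54 (exact permutation p = 0.3), where 3 mice against 3 cannot give less than 0.1. The choice of reference mattered for swimming. Clca1, Fcgbp and Muc2 made up most of the summed level in Ctrl mice (means of 17900, 10073 and 9620 of 44371 CPM). In Ctrl_Swim mice their means were 3141, 3354 and 7600 CPM, so the share mainly sets Reg4 beside these 3 genes. Per 100 reads of Muc2, the gel-forming mucin, there were 17.3 to 18.8 Reg4 reads in Ctrl mice and 7.17 to 14.8 in Ctrl_Swim mice, without overlap, 0.566 to 8.27 in Model mice and 6.05 to 8.48 in Model_Swim mice.

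**Figure D4:**
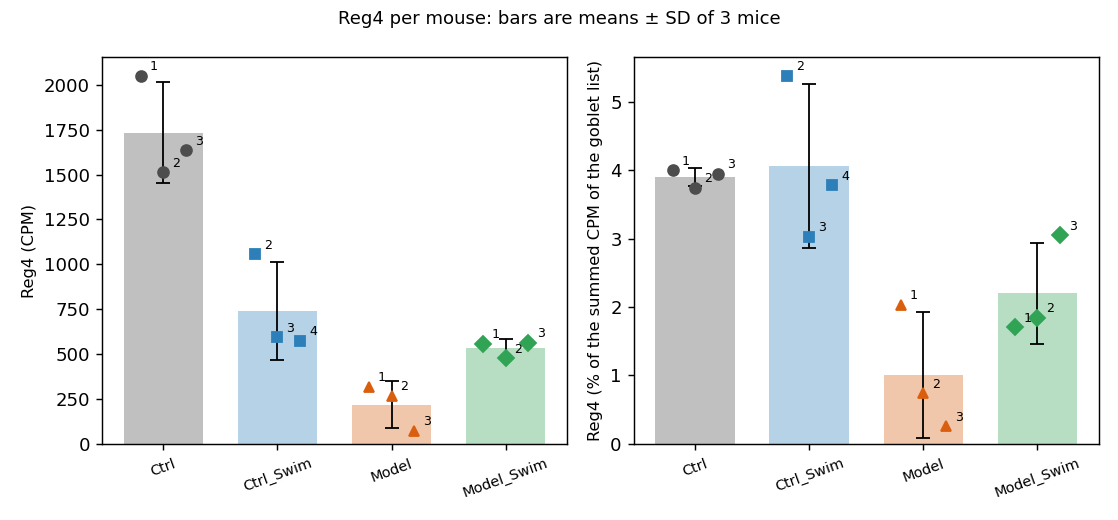
Reg4 level in CPM (left) and as a percentage of the summed CPM of 20 goblet and deep crypt secretory genes (right) in the 4 groups. Most of that sum in Ctrl mice came from Clca1, Fcgbp and Muc2. Bars are means ± SD of 3 mice and points are mice with their numbers. The level fell from 1733 CPM in Ctrl to 219 in Model mice, and the share was 3.90% in Ctrl, 4.06% in Ctrl_Swim, 1.01% in Model and 2.20% in Model_Swim mice.

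Counted over the family, 2 of the 5 members tested passed the cutoffs (more than a 2-fold difference in either direction, with an adjusted p below 0.05) between Model and Ctrl, Reg4 lower and Reg1 higher, where 7.43% of all genes tested passed. Only Reg4 was without overlap there, as were 44.2% of all genes. Between Model_Swim and Model, 0 of 5 passed (0.0710% of all genes), while Reg4 (higher) and Reg1 (lower, -11.27 on the log2 scale, adjusted p = 0.0608) did not overlap (16.9% of all genes). The Reg1 difference without Model 1 and Model 3 was -2.30 (adjusted p = 0.208). For Reg1 the gap between Model 2 and Model_Swim was one of 12 reads against 0, 3 and 4. At an unadjusted p under 0.05 there were 3 members, Reg1, Reg3a and Reg4 (13.6% of all genes), and DESeq2 called Reg1, Reg2 and Reg3d (0.742% of all genes). Between Ctrl_Swim and Ctrl, 0 of 5 passed (0.168% of all genes), and Reg4 and Reg1 were lower without overlap (27.4% of all genes). Reg4 was the 1 member of 5 with an unadjusted p under 0.05, near the share of all genes (17.6%), and DESeq2 called 0 (0.568% of all genes). Between Model_Swim and Ctrl_Swim, 0 of 5 passed (1.00% of all genes) and 0 had an unadjusted p under 0.05 (22.4% of all genes), with DESeq2 calling 0 too (1.85% of all genes). Reg4, Reg1 and Reg3a were lower there without overlap (32.4% of all genes). Averaged over swimming, 1 of 5 passed (Reg4, 4.29% of all genes), and it alone was without overlap (12.4% of all genes). In the interaction 0 of 5 passed (0% of all genes), 2 (Reg3a and Reg4) had an unadjusted p under 0.05 (19.0% of all genes), and DESeq2 called 3 (Reg1, Reg2 and Reg4, 1.51% of all genes). Without Model 1 and Model 3 the 1 member called between Model and Ctrl was Reg4. These comparisons share groups with one another.

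**Figure D5:**
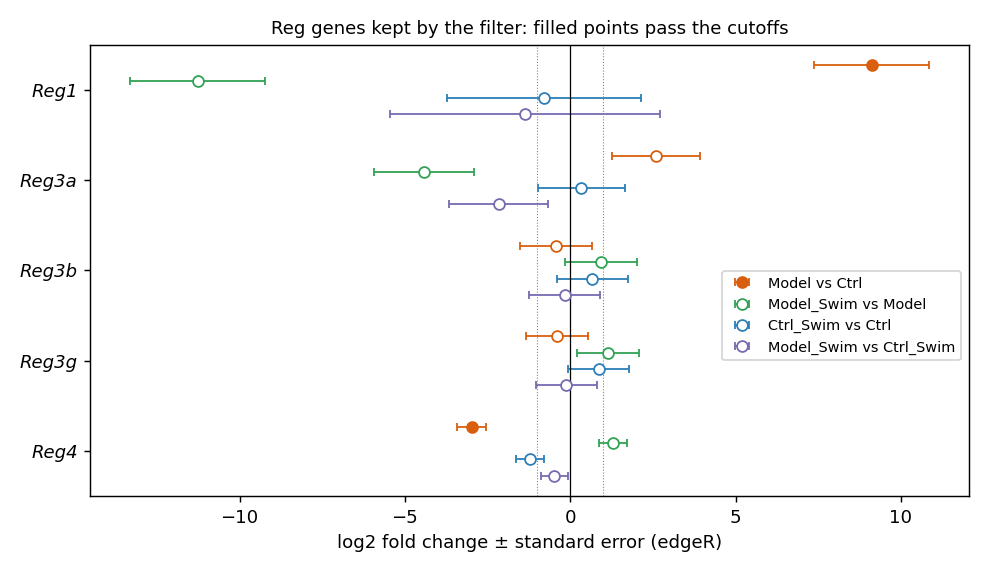
Log2 fold change ± SE (edgeR) of the 5 Reg genes kept by the filter in 4 comparisons. Filled points passed the cutoffs, dotted lines mark 2-fold differences. Only Reg1 (9.11) and Reg4 (-2.98) in Model vs Ctrl are filled, and the points of Reg3b and Reg3g lie between -0.43 and 1.15.

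The signals that are known to induce Reg3b and Reg3g were measured in the same mice. Il22, the cytokine itself, was at 0.381 CPM or less in every library and was not kept by the filter. Its receptor subunit Il22ra1 was at 35.4 to 84.0 CPM in all libraries. Of 26 genes tested from a list of IL-22, IL-6 and IL-17 signaling, 7 rose in Model relative to Ctrl mice (6.21% of all genes) and 0 fell (1.22%), with a median of 0.38 on the log2 scale. The largest were the cytokine genes Il1b (4.09), Il17a (3.03) and Il12b (2.67), and the STAT3 target Socs3 (1.97) was among the 7. Between Model_Swim and Model none of the 26 passed, and between Model_Swim and Ctrl_Swim Il1b alone did (3.69). In Model 1, 2 and 3, Il1b was at 22.4, 24.7 and 6.37 CPM and Reg3b at 46.0, 10.1 and 208 CPM. In Model_Swim 1, 2 and 3, Il1b was at 7.71, 15.3 and 21.5 CPM and Reg3b at 63.9, 77.8 and 360 CPM. A relation between these genes was not tested.

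Other secreted defence genes of the gut epithelium moved in both directions. Of 25 tested, 9 rose in Model relative to Ctrl (6.21% of all genes). The largest were lactoferrin (Ltf 7.35), S100a8 (5.93) and S100a9 (5.65), genes that neutrophils express as well. In Model 1, 2 and 3, Ltf was at 192, 329 and 0.976 CPM, the last inside the Ctrl range of 0.773 to 1.31. In these mice S100a8 was at 15.1, 8.17 and 1.38 CPM and S100a9 at 41.1, 20.6 and 2.87 CPM. The 3 that fell (1.22% of all genes) were Retnlb (-2.55), Itln1 (-2.03) and Ang4 (-1.92), products of goblet and Paneth-like cells. In Ctrl_Swim relative to the same Ctrl mice, with 0.142% of all genes falling, 3 fell (Ang4 -2.95, Itln1 -2.61 and Retnlb -2.50) and 0 rose. Between Model_Swim and Ctrl_Swim, with 0.924% of all genes rising, 4 rose (Nos2 3.43, Lcn2 2.71, Duoxa2 2.46 and Duox2 1.73). Between Model_Swim and Model none of the 25 passed. Among the proposed binding partners of Reg proteins (Extl3, Egfr and Cd44), 0 of 3 passed in any of the 4 group comparisons.

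Lists of other cell types gave the surroundings of these values in Model relative to Ctrl mice, again beside 6.21% of all genes that rose and 1.22% that fell. Of the acinar genes, 17 of 19 rose (median 9.07 on the log2 scale), among them Pnlip, by which Model 1 and Model 3 were named. Of 5 islet genes tested 2 rose (Pdx1 and Ppy) and 1 fell (Sst). Both that rose were highest in Model 2. Ppy was at 8.31, 9.64 and 2.53 CPM in Model 1, 2 and 3, and Pdx1 at 1.45, 1.53 and 0.861 CPM. The summed level of the acinar list was 396 to 55664 CPM in Model, 495 to 706 in Ctrl, 206 to 348 in Ctrl_Swim and 208 to 262 in Model_Swim mice. Of 18 small intestinal enterocyte genes 10 fell and 1 rose (median -1.66), of 14 Paneth cell genes 6 fell and 1 rose (median -2.40), of 16 enteroendocrine genes 1 fell (Sct, -1.99), and of 20 colon epithelium genes none passed (median -0.43). Without Model 1 and Model 3, where 5.91% of all genes rose and 2.18% fell, 1 of the 19 acinar genes rose and 2 fell, 6 of 20 small intestinal genes and 3 of 16 Paneth cell genes tested then fell, and 2 of 20 colon epithelium genes rose and 2 fell. In the same fit 6 of 27 genes of the cytokine list rose and 0 fell, 11 of 26 defence genes rose and 2 fell, and 2 of 20 goblet genes fell. The part of these cell types in the Reg levels was not tested.

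The genes whose log2 level was most like that of each Reg gene over the 12 libraries were listed as a description, among 14000 named genes outside the family with a mean of at least 1 CPM. For Reg1 they included Cela1 (Pearson r = 0.986) and Gp2 (0.985), genes of an acinar enzyme and of the zymogen granule membrane. Without Model 1 and Model 3 these values were 0.564 and 0.836 over 10 libraries. For Reg4 they were Cenpb (0.979), Eif6 (0.978) and Eif3c (0.953), which vary little between mice (Cenpb from 186 to 258 CPM). For Reg3a they were Zfp51 (0.874), Tmed6 (0.852) and Mdm1 (0.826), for Reg3b Zfp213 (0.848), Ksr2 (0.839) and Erich4 (0.830), and for Reg3g Senp8 (0.797), Erich4 (0.789) and Timd4 (0.775). None of these 14000 genes came as near to Reg3b or Reg3g as the paralogs did to each other (0.955).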

How the data were processed

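Total RNA of mouse colorectal tissue had been sequenced by the authors from stranded mRNA libraries (TruSeq Stranded mRNA kit). Per the study's methods, reads were trimmed with Trimmomatic, aligned to GRCm38.p6 with HISAT2, counted with HTSeq-count and turned into FPKM with Cufflinks. Tool versions, the gene annotation and the strand setting of the counting are not given in the sources used here. The deposited tables held raw counts per gene and, for the same libraries, the authors' FPKM values (fragments scaled by transcript length and library size), 1 column per mouse. Within a gene the FPKM values followed the share of counts (median CV of their ratio 1.68e-10). The fits on FPKM thus rest on the same counts. Each column was tied to its mouse by the sample title. Depth was 17256953 to 19451055 counts a library, and intervals and the floor of 3 counts cover counting error only.

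Counts were analysed with edgeR 4.0.16 in R 4.3.3 (TMM scaling, filterByExpr with a minimum count of 10, quasi-likelihood test, 1 fit of 4 group means over 12 libraries, Benjamini-Hochberg adjustment over the 15484 genes kept). A gene was called where it differed by more than 2-fold (ratio above 2 or below 0.5) with an adjusted p below 0.05. Levels are TMM-scaled CPM, FPKM was used to compare levels between genes, and correlations and likeness used log2 CPM with a prior count of 2. The scripts were tested on simulated data. Alternatives were DESeq2 1.42.0, DESeq2 size factors in edgeR, no filter, the adjusted p alone, limma 3.58.1 on log2(FPKM + 1) and log2(FPKM + 0.1) with a minimum mean FPKM of 0.5 or none, the groups compared alone, the replicate number as a block, the acinar list as a covariate, each library left out, and both Pnlip-rich libraries left out. The fits without these libraries for Reg2, Reg3d, the gene lists and the goblet share were added after the data were seen.

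The members and gene lists were chosen with earlier results of these data known. Named were all Reg genes, up to 3 members of each list with the largest rise and fall among those past the cutoffs, the 3 most abundant acinar genes and the 3 genes most like each Reg gene. 1 gene that this rule names is not reported here. Genes given beyond that rule (Ins2, Muc2, Fcgbp, Ptf1a, Scnn1g, Car1, Il22, Il22ra1, Socs3 and Duox2), and the share of Reg4 in the goblet sum, were chosen after their values were seen. Sequences were taken from RefSeq on GRCm38.p6, transcript similarity from GENCODE transcripts, with Biopython 1.88.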

Additional observations from a re-analysis of the deposited data

Results flagged for a closer look

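The mean Reg4 level was lower with swimming in untreated mice and higher with swimming in AOM/DSS mice. Neither difference passed the cutoffs (edgeR adjusted p = 0.191 and 0.257). Every Ctrl_Swim mouse (575 to 1057 CPM) lay below every Ctrl mouse (1513 to 2051 CPM), as 27.4% of all genes were without overlap there. Every Model_Swim mouse (476 to 564 CPM) lay above every Model mouse (72.5 to 317 CPM), where 16.9% of all genes were without overlap. The swimming difference in AOM/DSS mice minus that in untreated mice was 2.51 on the log2 scale (SE 0.60). The test of this difference gave an adjusted p of 0.115 in edgeR, which does not pass the threshold, and 0.00348 in DESeq2, which does. With 1 library left out at a time the difference ranged from 2.08 to 2.85, and it passed the cutoffs without Model 3 (2.08, adjusted p = 0.00874). It did not pass in edgeR with the acinar covariate (2.28, adjusted p = 0.195) or the replicate block (2.42, adjusted p = 0.409). As a share of the goblet sum, Reg4 differed by 0.02 (log2, exact permutation p = 0.9) between Ctrl_Swim and Ctrl mice. Between Model_Swim and Model mice that share differed by 1.54 (exact permutation p = 0.3). The share was chosen after the data were seen and depends on the reference. Per 100 Muc2 reads there were 17.3 to 18.8 Reg4 reads in Ctrl mice and 7.17 to 14.8 in Ctrl_Swim mice, without overlap.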

How the results depend on the processing

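Reg4 was called lower in Model than in Ctrl mice under all 23 alternatives (log2 -3.33 to -2.56) and lower with AOM/DSS averaged over swimming under all 22 (-1.91 to -1.52). It was never called between Model_Swim and Model (0.87 to 1.64, adjusted p 0.0660 to 0.650). No Reg gene was called between Model_Swim and Ctrl_Swim under any of 23 alternatives. Elsewhere the number of Reg genes called moved. Between Model and Ctrl (2) it was 4 with DESeq2, with no filter and in all 3 limma fits on FPKM, where Reg2 and Reg3d were tested too, and 1 with the acinar covariate or without both Pnlip-rich libraries. Leaving out 1 library gave 2 to 5, with 5 without Model 2. The filter kept more genes in such fits (15668 without Model 2 against 15484), and those 5 calls include Reg2 and Reg3d. Between Model_Swim and Model (0) the number of Reg genes called was 3 with DESeq2, 1 with no filter and 0 to 3 with 1 library left out (3 without Model 2, 1 without Model 3). Between Ctrl_Swim and Ctrl (0) it was 1, Reg4, in a fit of these groups alone and without both Pnlip-rich libraries, and 0 to 1 with 1 library left out (1 without Model 3). Averaged over swimming (1) it was 3 with DESeq2, 2 without both Pnlip-rich libraries (Reg3a and Reg4) and 1 to 3 with 1 library left out (3 without Model 2). In the interaction (0) it was 3 with DESeq2, 1 without both Pnlip-rich libraries and 0 to 1 with 1 library left out (Reg1 without Model 2, Reg4 without Model 3). Over all genes, the swimming comparison made 115 DESeq2 calls against 11 by edgeR in AOM/DSS mice and 76 against 26 in untreated mice, the comparison of both swimming groups made 274 against 155, and the interaction 213 against 0. The cause of the moves other than the number of genes tested was not tested.

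Several uncalled differences changed sign. With the acinar covariate, Reg1 was at 1.18 (log2) in Ctrl_Swim against Ctrl and at 0.15 in Model_Swim against Model, and Reg3a at -2.74 in Model against Ctrl and at 2.48 in Model_Swim against Model. Without both Pnlip-rich libraries, which leaves 1 Model mouse, Reg3a was at -7.44 and 5.61 in these. With 1 library left out, Reg3a in Ctrl_Swim against Ctrl ranged from -0.96 to 1.75, Reg3b from -0.64 to 1.32 and Reg3g from -0.58 to 1.54. In Model against Ctrl, Reg3b ranged from -2.06 to 0.21 and Reg3g from -1.07 to 0.27. In Model_Swim against Model they ranged from -0.32 to 2.57 and from -0.10 to 1.83, and in Model_Swim against Ctrl_Swim from -1.42 to 1.15 and from -1.38 to 1.33.

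The replicate numbers were not taken to pair the mice, since the deviations of same-numbered mice correlated between -0.26 and 0.56. With the replicate block, 1 Reg gene, Reg1, was called between Model_Swim and Model. The block turned Reg3a, Reg3b and Reg3g in Ctrl_Swim against Ctrl to -1.24, -0.69 and -0.60, and Reg3b and Reg3g in Model_Swim against Ctrl_Swim to 1.00 and 1.17. Over all genes the block gave 1109, 22, 1 and 18 calls, against 1150, 11, 26 and 155 without it, in Model against Ctrl, Model_Swim against Model, Ctrl_Swim against Ctrl and Model_Swim against Ctrl_Swim.

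Depth limits Reg1, Reg2 and Reg3d outside the Pnlip-rich libraries, where they had 13 reads or fewer, and the spread between 3 mice limits Reg3a, Reg3b and Reg3g.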
